A study of Rattus norvegicus with 4 samples.

Results

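The genes described here encode the main families of enzymes that handle foreign compounds, measured in cultured olfactory ensheathing cells of the rat. They were chosen by name, as probes whose gene name belongs to the cytochrome P450 families CYP1 to CYP4, the flavin-containing monooxygenases (FMO), the carboxylesterases (CES), the epoxide hydrolases (EPHX), the NAD(P)H quinone dehydrogenases (NQO), the glutathione S-transferases (GST), the UDP-glucuronosyltransferases (UGT) or the sulfotransferases (SULT). The rule took 117 of 41012 probes and 94 of 35658 gene names, and it used no measured value. Of these genes, 58 were placed in phase I (CYP, FMO, CES, EPHX and NQO) and 36 in phase II (GST, UGT and SULT).

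Phase I enzymes expose or add a reactive group on a compound by oxidation, reduction or hydrolysis, and phase II enzymes attach glutathione, glucuronic acid or sulfate to such groups, which makes the product easier to export. The lining of the nose meets inhaled chemicals directly, and its supporting cells and glands are known for high levels of such enzymes, where they also clear odorants. Olfactory ensheathing cells are the glia that accompany the axons of smell-sensing neurons through the mucosa and into the outer layers of the bulb.

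The cells of olfactory mucosa and those of olfactory bulb both came from male Fischer rats and were grown by the same protocol. Neither the age of the rats nor the number behind each culture is given in the sources used here. Each of 4 arrays carried 1 biological replicate as a pair, mucosa cells in Cy5 and bulb cells in Cy3. Because no array had the dyes exchanged, dye and tissue cannot be told apart in any ratio below. Isolated mRNA was amplified by global PCR as cDNA, and 250 ng of cDNA entered each labelling. How evenly the PCR amplified each transcript was not tested. In cultures measured in bulk, a smaller number of cells of a type and less RNA per cell cannot be told apart either.

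On each array 82.8% to 91.1% of the spots of a channel exceeded background clearly by the scanner's criterion, which at most 3 of 153 negative control spots met. All 12 listed markers of ensheathing and Schwann glia were measurable, and 6 of them, S100b, Ngfr, Sox10, Fabp7 and Cdh19 included, were lower in mucosa cells. Fabp7 was called without each array in turn, whereas S100b, Ngfr, Sox10 and Cdh19 missed the threshold without 2 or more of the arrays taken singly (adjusted p up to 0.0632, 0.107, 0.0753 and 0.0708). The summed signal of the 12 ranged from 20365 to 22288 in mucosa cells and from 45332 to 58362 in bulb cells. Of the 12 fibroblast markers, 6 were higher (Mfap5, Thy1, Col1a2, Col1a1, Postn and Pdgfrb) and 2 lower (Fbln1 and Dcn) in mucosa cells, and the list summed to between 283742 and 327104 in mucosa cells and between 111053 and 163154 in bulb cells. Of these 8, Pdgfrb missed the threshold without any one array (adjusted p up to 0.144), Dcn without replicate 2, 3 or 4 (up to 0.117) and Postn without replicate 1 or 2 (up to 0.0579), and Pdgfrb and Dcn were each called in 8 of 12 other settings. Among 9 tested sustentacular cell markers, Krt8 alone passed the test, higher in mucosa cells at a log2 ratio of 2.64. The list summed to between 21625 and 26972 in mucosa cells and between 7994 and 10471 in bulb cells. Most of that sum came from Krt8 (mean signal 9461 in mucosa and 1587 in bulb cells) and the uncalled Hes1 (11882 and 5681). Cyp2g1 (173 and 167) and Ugt2a1 (127 and 119) added little. In the fibroblast sum, Col1a1 (148681 and 42189) was the brightest gene in mucosa cells. Of the 11 genes on the sustentacular list, 4 (Cyp2g1, Cyp1a2, Ugt2a1 and Sult1c1) are also enzyme genes described here. Sult1c1 was above background on 1 array in mucosa cells and 2 in bulb cells, too few to be tested. Markers of the other cell types were mostly measurable too. Of 10 tested epithelial markers Cdh1 alone was called, lower in mucosa cells at a log2 ratio of -2.40, and of 11 of macrophages and microglia Cd74 alone, higher at 3.10. Of 9 astrocyte markers, Gfap (-1.44) and Slc1a3 (-1.85) were lower, and of 8 endothelial markers Tek (1.51) was higher and Cdh5 (-1.57) lower. Cdh1 and Cd74 were called without each array in turn, while Gfap, Slc1a3, Tek and Cdh5 missed the threshold without any one (adjusted p up to 0.0711, 0.108, 0.150 and 0.0985). By limma 0 of 7 sensory neuron markers and 0 of 8 gland markers were called, beside 6.62% of all names. In each of both lists 1 was higher and 0 lower at an unadjusted p under 0.05, beside 11.1% and 12.6% of all names. Summed signals overlapped between the cultures for these lists, except that gland markers summed to between 6781 and 9325 in mucosa cells and between 5614 and 6615 in bulb cells. One gene on each of 4 lists was above background on too few arrays to be tested, namely Krt19 of epithelium, Cnga2 of sensory neurons, Obp3 of glands and Pecam1 of endothelium. The part that different cell mixtures have in the enzyme results was not tested.

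Probes of some called genes are shown first, since each value below is the signal of one such 60-base stretch of transcript and close relatives could bind to it. Probes of 5 of the 8 called genes are written in lower case from 5′ to 3′, with no base marked. The files give positions on the rn4 build and do not say which exon a probe lies in. Nqo1 is at chr19:37256979-37257038, minus strand. Ephx1 is at chr13:96729072-96729131, minus strand. Sult5a1 is at chr19:53472826-53472885, minus strand. Ces2 is at chr1:267892271-267892585, plus strand. Cyp4a11 is at chr5:135770520-135771718, minus strand. The spans of Ces2 and Cyp4a11 exceed 60 bases.
Nqo1: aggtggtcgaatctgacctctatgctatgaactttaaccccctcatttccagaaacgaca
Ephx1: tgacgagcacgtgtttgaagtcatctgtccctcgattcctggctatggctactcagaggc
Sult5a1: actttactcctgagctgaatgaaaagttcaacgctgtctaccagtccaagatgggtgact
Ces2: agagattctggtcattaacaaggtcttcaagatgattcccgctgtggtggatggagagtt
Cyp4a11: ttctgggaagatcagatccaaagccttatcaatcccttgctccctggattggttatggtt

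Most of the enzyme genes were measurable in both cultures. A gene was counted as detected in a culture if at least 0.5 of its probe's spots were well above background on at least 3 of 4 arrays. By that measure 66 of 94 genes (70.2%) were detected in both mucosa and bulb cells, against 84.1% of all gene names, and 22 were detected in neither. In phase I, 38 of 58 genes (65.5%) were detected in both, and in phase II 28 of 36 (77.8%). With all 4 arrays required, the shares were 56.9% in phase I and 75.0% in phase II.

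By family, detection is given as a description without a test. All 15 glutathione S-transferase genes were detected in both cultures, as were both epoxide hydrolases and both quinone dehydrogenases. So were 8 of 10 UDP-glucuronosyltransferases, 4 of 5 carboxylesterases and 4 of 6 flavin-containing monooxygenases. Sulfotransferases were detected in both in 5 of 11 cases, and cytochromes P450 in 16 of 25 cases in CYP2, 2 of 5 in CYP3, 6 of 10 in CYP4 and 2 of 3 in CYP1. Of 94 genes, 2 met this cut in mucosa cells alone (Cyp2c40 and Sult1b1) and 4 in bulb cells alone (Ces3, Cyp3a13, Cyp4a22 and Fmo2). Over all 35658 gene names, 713 and 1183 did. Except for Sult1b1, the other culture was still above background on 1 or 2 arrays. These 6 genes are named for their detection after their values were seen, Sult1b1 excepted. Detection depends on the probe as well as on the transcript, and each gene here has 1 to 4 probes.

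**Figure D1:**
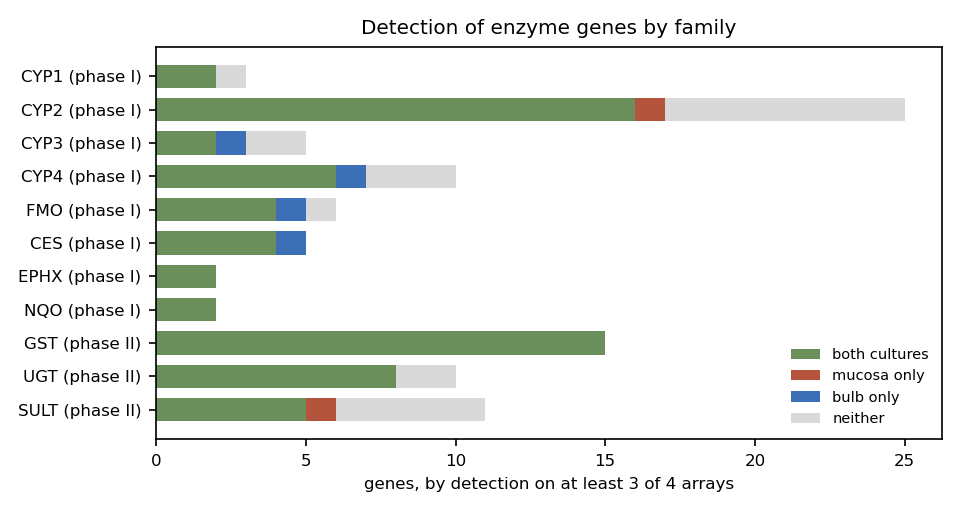
Horizontal bars give the number of enzyme genes in each family that were well above background on at least 3 of 4 arrays in both cultures (green), in mucosa cells alone (red), in bulb cells alone (blue) or in neither (grey). All 15 GST genes were detected in both cultures, while 5 of 11 SULT genes and 8 of 25 CYP2 genes were detected in neither.

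For 6 genes no array showed a signal well above background in either culture. Cyp1a1, the P450 classically induced through the aryl hydrocarbon receptor, has a probe repeated in 10 spots, and it was well above background on 0 of 4 arrays in mucosa cells and 0 of 4 in bulb cells. Cyp2c23, Cyp4a14, Sult1d1, Sult2a1 and Ugt2b3 were likewise at 0 of 4 arrays in each culture. Sult1b1 was well above background on 4 of 4 arrays in mucosa cells and 0 of 4 in bulb cells. Its signal was 89.3, 86.4, 115 and 104.9 in mucosa cells, against 79.9, 84.3, 87.6 and 77.1 in bulb cells. These signals overlapped and were near the detection limit. The mean ratio was 1.20-fold higher in mucosa cells, and limma gave an adjusted p of 0.479. A second Sult1b1 probe was above background on 0 arrays in either culture.

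The main comparison asked which enzymes differ between mucosa and bulb cells. The statistic was the mean log2 ratio of mucosa over bulb on 4 arrays, tested against 0 with limma, and a gene was called at an adjusted p under 0.05 over all 31893 gene names tested. Of the 94 enzyme genes, 72 passed the filter on dim probes and 22 did not. Of the 72, 8 were called, which is 11.1% beside 6.62% of all names. Of the 8, 6 were higher in mucosa cells (3.23% of all names were called in that direction) and 2 were lower (3.38% of all names). Phase I had 5 higher, Fmo1, Nqo1, Ephx1 and Ces2 among them, and 1 lower (Cyp4a11) of 43 tested. Phase II had 1 higher (Sult5a1) and 1 lower (Gstm1) of 29 tested. At an unadjusted p under 0.05 there were 8 higher and 4 lower of 43 in phase I, and 4 higher and 2 lower of 29 in phase II, where 11.1% of all names were higher and 12.6% lower by that measure.

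**Figure D2:**
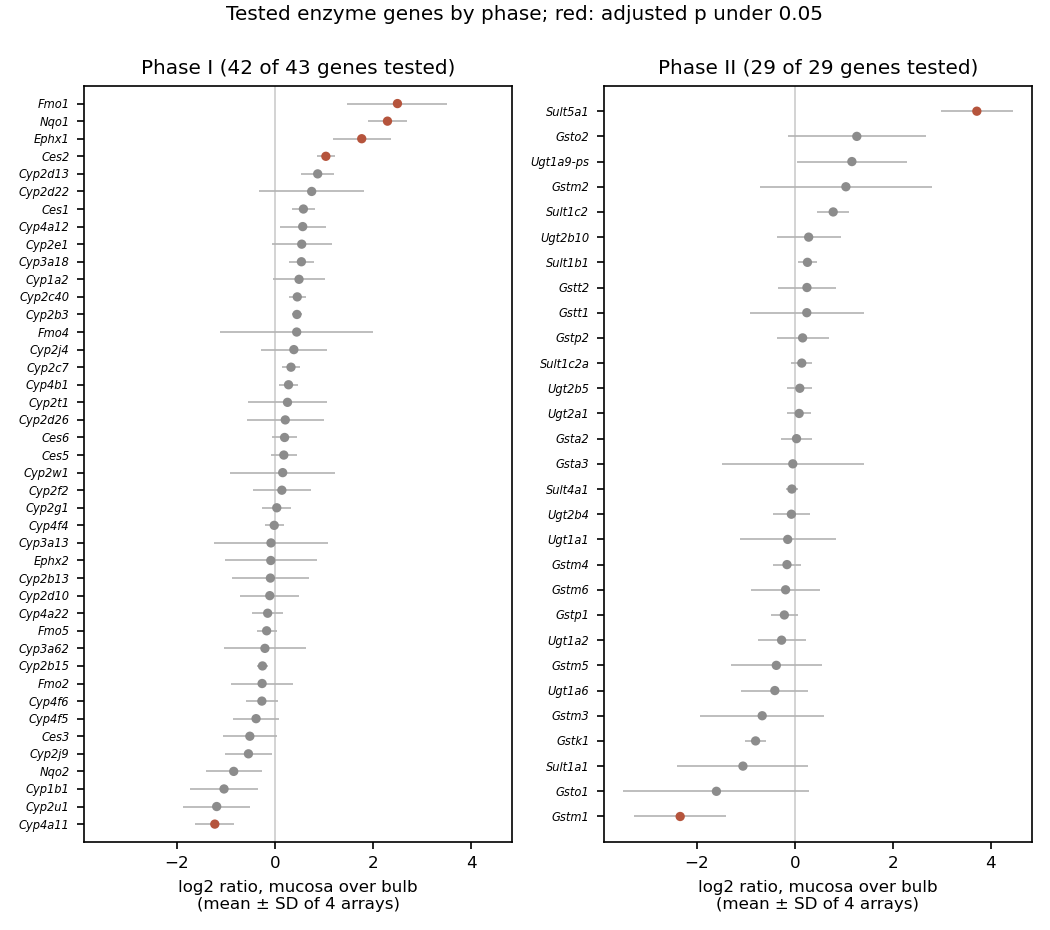
Points give the mean log2 ratio of mucosa over bulb for all tested genes but 1, with bars of 1 SD over 4 arrays, phase I on the left (42 of 43 genes) and phase II on the right (29 genes). Red points are 7 of the 8 called genes, and most of the other 64 lie close to 0 or have bars that cross it.

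The medians of both phases lay near that of the whole array. The median log2 ratio was 0.18 over the phase I genes and -0.042 over the phase II genes, beside 0.012 over all names. On single arrays the phase I median was 0.10, -0.0019, 0.092 and 0.45, and the phase II median was 0.021, -0.10, 0.059 and 0.024. Replicate 4 thus had the highest phase I median, and the phase II medians stayed near 0. The ratio had the same sign on all 4 arrays in 19 of 43 phase I genes (44.2%) and 7 of 29 phase II genes (24.1%), beside 33.5% of all names. Signals of mucosa and bulb cells did not overlap for 13 phase I and 5 phase II genes, 18 of 72 in all, beside 20.8% of all names.

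Among the reducing and hydrolysing enzymes of phase I, Nqo1 and Ephx1 were higher in mucosa cells. Nqo1 reduces quinones directly to hydroquinones, and its signal was 4950, 6395, 10134 and 6903 in mucosa cells, against 997, 1070, 1719 and 2071 in bulb cells. Every mucosa value lay above every bulb value. This was a log2 ratio of 2.30 ± 0.39 (SD, n = 4), or 4.91-fold, with a limma adjusted p of 0.00532. Ephx1, the microsomal epoxide hydrolase that opens reactive epoxides to diols, had signals of 1408, 2311, 3583 and 3235 in mucosa cells, against 644, 401, 1225 and 877 in bulb cells. These groups did not overlap either, and the log2 ratio was 1.77 ± 0.59 (SD, n = 4), or 3.41-fold, with a limma adjusted p of 0.0191. Nqo1 remained called without each array in turn, while Ephx1 missed the threshold without any one of them, at adjusted p of 0.0523 (replicate 1 or 3), 0.0763 (replicate 2) and 0.0682 (replicate 4) and log2 ratios of 1.52 to 1.99.

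Their closest relatives in the set were not called. Nqo2, a quinone reductase that uses dihydronicotinamide riboside as its electron donor, had signals of 330, 660, 867 and 324 in mucosa cells, against 792, 875, 1061 and 856 in bulb cells. Its ratio was negative on all 4 arrays, the signals overlapped, and the log2 ratio was -0.84 ± 0.57 (limma adjusted p 0.133). Ephx2, the soluble epoxide hydrolase, had ratios of 0.83, -1.10, -0.65 and 0.59 on the 4 arrays. Those values have no common sign, and their mean was -0.08 ± 0.94 (limma adjusted p 0.910).

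Carboxylesterases cleave esters and amides, and 1 of 5 tested was called (20%, beside 6.62% of all names). Ces2, now named Ces2c, had signals of 586, 628, 726 and 596 in mucosa cells, against 287, 280, 321 and 345 in bulb cells. The signals of each culture lay close together without overlap. Its log2 ratio was 1.04 ± 0.18 (SD, n = 4), or 2.06-fold, with a limma adjusted p of 0.0346, and without any one array it was 0.99 to 1.12 and missed the threshold at adjusted p of 0.0748 to 0.151. The other 4 carboxylesterases had log2 ratios between -0.51 (Ces3) and 0.58 (Ces1). A second Ces1 probe had -0.05 where the first had 0.58, and the array's Ces1 and Ces3 both carry names that have since become parts of the Ces1 group (Ces1e and Ces1d), so signal of close relatives may be shared.

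**Figure D3:**
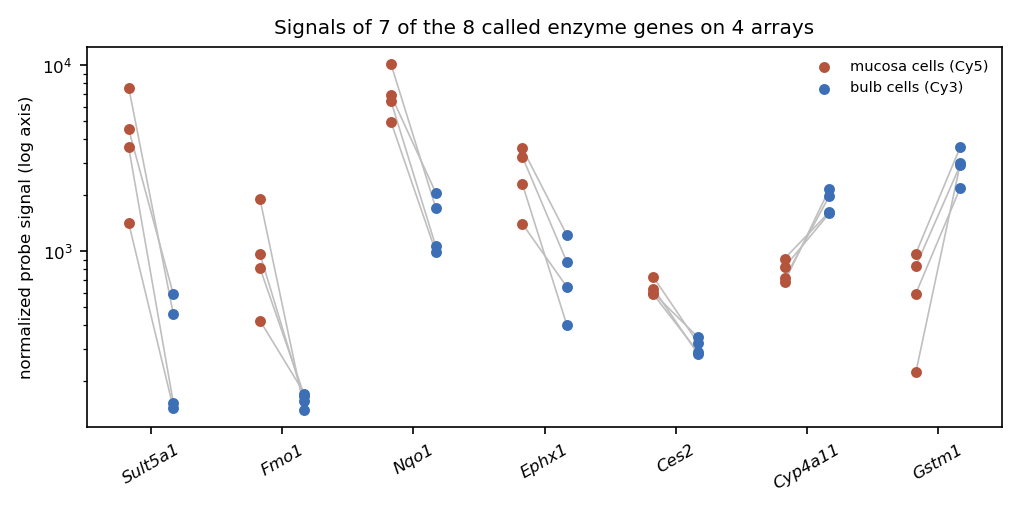
Normalized probe signals on a log axis for 7 of the 8 called genes, with mucosa cells (red) left of bulb cells (blue) and a grey line joining both cultures of 1 array. Sult5a1, Fmo1, Nqo1, Ephx1 and Ces2 slope down toward bulb cells on all 4 arrays and Cyp4a11 and Gstm1 slope up on all 4.

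The flavin-containing monooxygenases, which add oxygen to nitrogen and sulfur atoms of drugs and amines, included Fmo1. This gene had signals of 815, 970, 424 and 1921 in mucosa cells, against 167, 157, 172 and 140 in bulb cells. Mucosa signals spread widely while bulb signals stayed in a narrow range, and the groups did not overlap. Its mean log2 ratio was 2.50 ± 1.02 (SD, n = 4), or 5.66-fold, with a limma adjusted p of 0.0201. It was not called without replicate 1 (2.57, adjusted p 0.0849) or replicate 2 (2.46, adjusted p 0.0822), and with the scanner's processed signals it was 3.33.

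The Fmo1 probe starts at 78504208 on chromosome 13 of rn4, between those of Fmo4 at 78476878 and Fmo2 at 78546402, all on the minus strand. Fmo4 had log2 ratios of -1.06, 0.68, 2.53 and -0.37, and Fmo2 had 0.34, -0.0019, -0.25 and -1.13. Both genes changed sign between arrays and were not called, with means of 0.44 ± 1.57 and -0.26 ± 0.63 (limma adjusted p 0.671 and 0.616). Fmo5, on chromosome 2, had -0.17 ± 0.20 (adjusted p 0.649).

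Of the cytochromes P450, the haem enzymes that carry out most phase I oxidations, 29 were tested in 4 families and 1 was called. The share called over all names was 6.62%. Cyp4a11, now named Cyp4a2 and a member of the fatty acid omega-hydroxylases, had signals of 686, 715, 823 and 914 in mucosa cells, against 2151, 1977, 1597 and 1625 in bulb cells. The groups did not overlap, and the spread within each was small. The mean log2 ratio was -1.23 ± 0.39 (SD, n = 4), 2.34-fold lower in mucosa cells, with a limma adjusted p of 0.0337. It missed the threshold without any one array (-1.36 to -1.08, adjusted p 0.0645 to 0.142), with the scanner's own processed signals (-1.24, adjusted p 0.0723) and with median centring (-1.01, adjusted p 0.0602). The related Cyp4a12 and Cyp4a22, now named Cyp4a8 and Cyp4a1, lie on the same stretch of chromosome 5. They had 0.57 ± 0.47 and -0.15 ± 0.32 and were not called. Whether a probe binds transcripts of more than one of these related genes was not tested.

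Cyp1b1, which oxidises polycyclic hydrocarbons and oestrogens and is often found outside the liver, had a negative ratio on all 4 arrays. Its signal was 5338, 5427, 5484 and 4164 in mucosa cells, against 6631, 8165, 15133 and 14350 in bulb cells. The groups did not overlap, and bulb cells were far higher in replicates 3 and 4 than in replicates 1 and 2. The log2 ratio was -1.04 ± 0.70 (SD, n = 4) and was not called (limma adjusted p 0.107). A second probe had -1.01 ± 0.32, with ratios of -1.15, -0.59, -1.33 and -0.97, and it was called when every probe was tested on its own (adjusted p 0.0499).

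Cyp2u1, a P450 that hydroxylates long-chain fatty acids, had signals of 214, 514, 156 and 277 in mucosa cells, against 639, 607, 539 and 612 in bulb cells. Every mucosa value lay below every bulb value, and replicate 2 came closest. The log2 ratio was -1.19 ± 0.69 (SD, n = 4) and was not called (limma adjusted p 0.0748). In the other direction Cyp2d13, now named Cyp2d3, had 0.87 ± 0.34 with ratios of 0.39, 1.01, 1.18 and 0.91 (adjusted p 0.0751), and Cyp3a18 had 0.54 ± 0.25 (adjusted p 0.185).

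The P450s best known from the olfactory mucosa itself showed no call. Cyp2g1, an enzyme of olfactory supporting cells and glands, had signals of 162, 138, 188 and 206 in mucosa cells, against 161, 171, 182 and 155 in bulb cells. Those ranges overlapped, and the log2 ratio was 0.04 ± 0.29 (limma adjusted p 0.930). Cyp1a2 had 0.49 ± 0.53 (adjusted p 0.312) with signals of 90.7 to 203 in mucosa cells and 82.7 to 94.7 in bulb cells, and its second probe was above background on 0 arrays. Cyp4b1, which activates several lung and nasal toxicants, had 0.28 ± 0.20 (adjusted p 0.446). Cyp2a3, listed under another array name that the rule did not take, had 0.48 ± 0.47 (adjusted p 0.304) and was above background on 4 arrays in mucosa cells and 1 in bulb cells. No probe named Cyp2s1 or Gsta4 was among the enzyme genes.

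Cyp2e1, which oxidises ethanol and small solvents, has a probe printed in 10 spots per array, of which 10, 6, 10 and 8 remained on the 4 arrays after outlier spots were left out. The array means of its log2 ratio were 0.10, 1.38, 0.06 and 0.65, while the SD between spots of 1 array was 0.11 to 0.17. Replicate 2 was the highest. The spread between spots is that of 1 labelled sample and holds no difference between cultures. The mean over arrays was 0.55 ± 0.62 (SD, n = 4) and was not called (limma adjusted p 0.301).

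In phase II the single gene higher in mucosa cells was Sult5a1, a cytosolic sulfotransferase, and it had the largest ratio of the whole set. Its signal was 3628, 1417, 7602 and 4526 in mucosa cells, against 154, 144, 460 and 588 in bulb cells. The lowest mucosa value exceeded the highest bulb value. On the log2 scale the ratio was 4.56, 3.30, 4.05 and 2.94 on the 4 arrays, with a mean of 3.71 ± 0.73 (SD, n = 4), or 13.1-fold, and a limma adjusted p of 0.00322. It was called without each array in turn.

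The other 5 tested sulfotransferases were not called by limma, and 1 of them was higher at an unadjusted p under 0.05. Over all names 6.62% were called, and 11.1% were higher by the unadjusted measure. Sult1a1, which conjugates small phenols, had signals of 227, 242, 277 and 72.9 in mucosa cells, against 837, 226, 266 and 414 in bulb cells. The cultures differed on arrays 1 and 4 and were alike on arrays 2 and 3, and the log2 ratio was -1.06 ± 1.34 (limma adjusted p 0.258). Sult1c2 had 0.78 ± 0.32 with positive ratios on all 4 arrays (0.75, 1.01, 1.03 and 0.34, adjusted p 0.0944). Sult4a1, a brain form, had -0.06 ± 0.12 (adjusted p 0.872).

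Glutathione S-transferases join glutathione to electrophiles, and the mu class includes Gstm1, the gene lower in mucosa cells. Gstm1 had signals of 592, 831, 223 and 973 in mucosa cells, against 2202, 2920, 2985 and 3650 in bulb cells. The groups did not overlap, and replicate 3 had the lowest mucosa value. The log2 ratio was -1.89, -1.81, -3.74 and -1.91, with a mean of -2.34 ± 0.94 (SD, n = 4), 5.06-fold lower, and a limma adjusted p of 0.0201. Without replicate 3 it was -1.87 (adjusted p 0.0232), and without replicate 1, 2 or 4 it missed the threshold at -2.49, -2.51 and -2.48 (adjusted p 0.0753, 0.0657 and 0.0574).

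The 5 other mu-class genes lie with Gstm1 on chromosome 2 of rn4, from 203457561 (the first of 3 Gstm5 probes) to 203575855 (the end of Gstm1), and limma called 0 of them. Gstm2 had log2 ratios of 2.40, 1.90, 1.38 and -1.51. It was higher in mucosa cells on arrays 1 to 3 and lower on array 4, with a mean of 1.04 ± 1.75 (limma adjusted p 0.368), and it was called only without replicate 4 (1.89, adjusted p 0.0404). Gstm3, now named Gstm7, had -1.31, 1.17, -0.89 and -1.64, where replicate 2 stood against the other 3. Gstm4, now named Gstm3, and Gstm6 had means of -0.16 ± 0.29 and -0.19 ± 0.70.

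Gstm5 shows that such swings between arrays can repeat across probes. Its 3 probes had log2 ratios of 1.18, 1.23 and 0.77 on array 1 and of -0.39, -0.50 and -0.51 on array 2. On array 3 they had 0.31, 0.17 and -0.29, and on array 4 -1.55, -1.76 and -1.48. All 3 were thus highest on array 1 and lowest on array 4, with means between -0.38 and -0.12. Probes to 1 gene share the labelled sample, so they are not replicates of the comparison. On rn4 the first of these probes is placed on the plus strand and the others, the brightest included, on the minus strand.

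**Figure D4:**
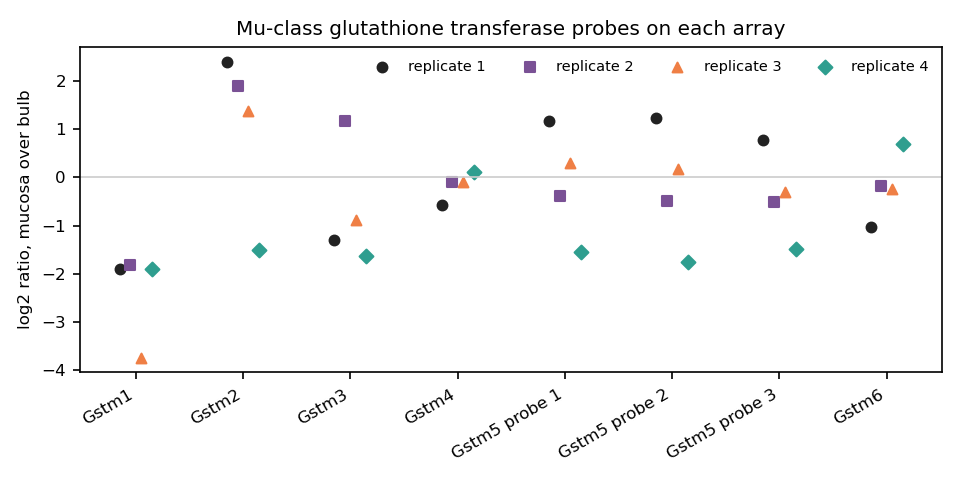
Log2 ratio of mucosa over bulb for each mu-class GST probe, with 1 symbol per replicate array. Gstm1 lies below 0 on all 4 arrays, Gstm2 lies above 0 on 3 arrays and at -1.51 on replicate 4, and the 3 Gstm5 probes repeat one order of arrays at the extremes.

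Across the glutathione S-transferases the spread between arrays was wide, with a median SD of 0.92 over 15 genes, beside 0.53 over all names. At an unadjusted p under 0.05 limma gave 1 higher and 2 lower of the 15, beside 11.1% and 12.6% of all names. Gsto1, an omega-class enzyme that also reduces dehydroascorbate, had ratios of -0.0046, 0.08, -3.48 and -2.99. Its signal was 1737, 1385, 211 and 311 in mucosa cells, against 1742, 1314, 2356 and 2472 in bulb cells. Arrays 1 and 2 lay near 0 and arrays 3 and 4 far below it, and the mean of -1.60 ± 1.90 was not called (limma adjusted p 0.219). Gsto2, its neighbour on chromosome 1, had 1.00, -0.61, 2.42 and 2.25, with a mean of 1.26 ± 1.40 (adjusted p 0.206).

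No gene of the pi, kappa or theta class was called. Gstp1, the pi-class enzyme that is abundant in many cultured cells, had signals of 13048 to 17379 in mucosa cells, against 15701 to 19929 in bulb cells. These ranges overlapped, and the log2 ratio was -0.21 ± 0.28 (limma adjusted p 0.575). Gstp2, an array name whose current symbol is also Gstp1, had 0.78, -0.42, -0.11 and 0.38, with a mean of 0.16 ± 0.53 (limma adjusted p 0.746). Gstk1, a mitochondrial and peroxisomal form, was negative on all arrays at -0.92, -0.98, -0.51 and -0.79, with a mean of -0.80 ± 0.21 (adjusted p 0.0736). Gstt1, of the theta class, had 0.24 ± 1.16 (adjusted p 0.770).

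UDP-glucuronosyltransferases attach glucuronic acid, and limma called 0 of 8 tested, with 1 higher and 0 lower at an unadjusted p under 0.05 (11.1% and 12.6% of all names). Ugt1a9-ps had ratios of 0.87, 0.28, 2.80 and 0.70, positive on all arrays, with a mean of 1.16 ± 1.12 (limma adjusted p 0.169). Ugt1a6, which conjugates flat phenols, had -0.41 ± 0.68 (adjusted p 0.455). Ugt2a1, the form known from olfactory epithelium for conjugating odorants, had 0.09 ± 0.24 (adjusted p 0.825). Genes of the UGT1A cluster share their 3′ exons, so probes there may report several forms.

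In all, 15 tested enzyme genes had a mean ratio of at least 1 in size on the log2 scale, and 7 of them were not called. These were Cyp1b1, Cyp2u1, Gstm2, Gsto1, Gsto2, Sult1a1 and Ugt1a9-ps, of which the last 5 had an SD above 1. The 64 uncalled genes had log2 ratios from -1.60 to 1.26, 28 of them within 0.25 of 0, and a p that misses the threshold does not show that the cultures were alike.

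The genes that supply and regulate these enzymes were compared through lists. Of 20 tested genes of xenobiotic sensing, 1 was called (5%, beside 6.62% of all names), Bach1, lower in mucosa cells. It encodes a repressor of antioxidant genes and had -1.23 ± 0.54 (limma adjusted p 0.0477). The receptor gene Ahr had 0.52 ± 0.30 (adjusted p 0.214), Nfe2l2, which encodes Nrf2, 0.26 ± 0.32 (adjusted p 0.509), and its inhibitor Keap1 -0.10 ± 0.67 (adjusted p 0.859). The list had a median of 0.12, beside 0.012 over all names. Bach1 missed the threshold without any one array (adjusted p 0.0930 to 0.134) and in 8 of 12 other settings (called in 4, ratio -1.29 to -0.91, adjusted p up to 0.113).

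Of 18 tested genes of electron and cofactor supply, 1 was called (5.56%, beside 6.62% of all names), higher in mucosa cells. It was Gclc, the catalytic subunit of the enzyme that starts glutathione synthesis, with ratios of 2.06, 1.68, 1.80 and 0.61 and a mean of 1.54 ± 0.63 (limma adjusted p 0.0324). Without replicate 4 it was 1.84 (adjusted p 0.0284), and without replicate 1, 2 or 3 it was not called (1.36 to 1.49, adjusted p 0.0967 to 0.127). It was called in 8 of 12 other settings (adjusted p up to 0.0603). Papss2, which makes the sulfate donor of sulfotransferases, had 1.43 ± 0.73 and missed the threshold narrowly (adjusted p 0.0501). Por, the reductase that feeds electrons to microsomal P450s, had -0.05 ± 0.12 (adjusted p 0.889). The median of the list was -0.046.

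Of 20 tested genes on a list of antioxidant genes regulated by Nrf2, 1 was higher and 1 was lower, with a median of -0.050. That is 10% called, beside 6.62% of all names. Nqo1 and Gclc, counted in other groups here, were not on this list. Hmox1, haem oxygenase, had ratios of 1.23, 1.32, 1.47 and 1.27 and a mean of 1.32 ± 0.10 (limma adjusted p 0.0161). Slc7a11, the cystine carrier, was lower at -1.71 ± 0.90 (adjusted p 0.0455), with mucosa cells above background on 2 arrays. Both missed the threshold without any one array (adjusted p up to 0.0829 for Hmox1 and 0.149 for Slc7a11). Hmox1 was called in 12 of 12 other settings, and Slc7a11 in 4 of 11, with ratios of -3.57 to -1.71 (adjusted p up to 0.0998).

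Promoter sequence is given for the gene of smallest adjusted p in each phase, Nqo1 and Sult5a1, with the 250 bases before the annotated start from RefSeq on the GRCr8 build. Windows of that length were searched on both strands for the antioxidant response motif TGACNNNGC and the core of the xenobiotic response motif GCGTG, which do not overlap in either window shown. Over 33469 promoters, 10.1% held the first motif and 25.9% the second, and of the 78 enzyme genes matched to a promoter, 5.13% and 23.1% did. Nqo1, at chr19:52220268-52220517 on the minus strand, held 1 match to the second, on the reverse strand (CACGC, in capitals), and Sult5a1, at chr19:68112657-68112906 on the minus strand, held neither. A match is a run of letters in this window and was not tested as a binding site. Bases further upstream were not searched.
Nqo1 promoter: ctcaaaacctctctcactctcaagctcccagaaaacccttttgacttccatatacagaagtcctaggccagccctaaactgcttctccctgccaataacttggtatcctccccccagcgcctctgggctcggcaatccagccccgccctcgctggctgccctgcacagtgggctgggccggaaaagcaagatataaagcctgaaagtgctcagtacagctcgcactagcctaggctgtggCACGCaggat
Sult5a1 promoter: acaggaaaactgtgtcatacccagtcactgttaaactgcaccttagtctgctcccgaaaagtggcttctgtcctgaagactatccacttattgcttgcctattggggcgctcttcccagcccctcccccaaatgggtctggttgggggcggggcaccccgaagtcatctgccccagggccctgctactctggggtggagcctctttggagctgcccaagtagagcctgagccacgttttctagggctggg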

How the data were processed

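The labels describe 4 arrays, each with mucosa cells in Cy5 and bulb cells in Cy3, and all had 1 scan time. Per the file headers, spots were read with Agilent Feature Extraction 10.5.1.1, while the submitters' processing notes give version 9.1. Foreground and background values of each spot were deposited as linear intensity, not normalized. The authors' deposited ratio, in each array file and in the value table of the series, is the log10 of Cy5 over Cy3 after the software's background and dye correction, per the file headers. Flags for spots well above background are the deposited values of the software.

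From the intensity values, limma 3.58.1 under R 4.3.3 corrected background (normexp, offset 50), applied loess within arrays with control and outlier spots at weight 0, and averaged spots of 1 probe after outlier spots were left out. Signals printed here were further normalized between arrays (Aquantile) and, apart from the sums over marker lists, are not compared between probes. Probes passed if at least 0.5 of their spots were well above background on at least 3 arrays in 1 channel, and the brightest probe stood for a gene name, which gave 31893 names. Each log2 ratio is the difference within a pair. Its mean was tested with lmFit and eBayes, two-sided, with Benjamini-Hochberg adjustment at 0.05, and the fit had 6.36 degrees of freedom. Because the pair is the array, pairing comes from the design text. The number of arrays limits the precision.

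Named genes were all called members except 1, which like 1 glial marker is not reported here by name or in the figures, the largest ratio in each family without a call, genes detected in 1 culture and in 0 arrays of the other, 23 genes taken whatever their result, and up to 3 called genes of each companion list. Relatives and neighbours of these genes, Pon2 and the cell type markers given by name were named after their values were seen. Members, lists and this rule were chosen with earlier results of these data known. Of 117 probes, 93 were matched by accession, 16 by symbol, 5 by synonym and 3 kept the file's name. For 35 the current symbol differs from the array name, and genes are called here by the array name. The RefSeq table is of GRCr8 and was used for names and promoters, and array positions are rn4. The fit was tested on simulated data. Tables came from pandas 2.3.3 and numpy 2.4.6 in Python 3.11.15, and figures from matplotlib 3.10.9. Alternatives were other background corrections and normalizations, the deposited ratios, other filters and probe choices, another variance model, unpaired channels and each array left out. Those for companion lists and marker genes were chosen after seeing the data.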

Additional observations from a re-analysis of the deposited data

Results flagged for a closer look

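Among 25 enzyme genes checked over 4 arrays, 1 had a sample far from the others. The log2 ratio of Gstm1 was -3.74 in replicate 3, while the other 3 replicates lay between -1.91 and -1.81. Chance flags about 1 in 20 such groups. The mucosa signal of that array was 223, below the 592 to 973 of the other arrays, and its bulb signal of 2985 lay within their range. All 4 replicates were lower in mucosa cells.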

How the results depend on the processing

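Sult5a1 and Nqo1 were called in all 12 other settings and without each array, with log2 ratios of 3.43 to 4.25 and 2.20 to 2.53 over both kinds of setting. Ephx1, Fmo1 and Gstm1 were called in all 12 other settings, Ces2 in 11 of 12 and Cyp4a11 in 7 of 12, and of 32 tests of the 8 called genes with 1 array left out 20 missed the threshold. No called gene changed direction. Among the 12 other settings, the processed signals, deposited ratio and value table each gave the same 1434 calls over all names, so they are not separate alternatives. Against 8 calls, leaving out 1 array gave 2 to 4, with higher calls of 2 to 4 and lower calls of 0 to 1, in phase I 1 to 2 higher and 0 lower, and in phase II 1 to 2 higher and 0 to 1 lower; the fit then has fewer samples. Lower calls fell to 1 (0 in phase I) with the scanner's processed signals, the deposited ratio, the value table, median centring and the trended robust variance, which also left 3 higher in phase I. Every probe tested on its own gave 2 lower in phase I. With Ephx and Nqo genes counted in phase II, both phases had 3 higher. Without the replicate block (unpaired channels) 10 members were called, 7 higher and 3 lower, 2 of these lower in phase II, with Cyp2d13 (0.87, adjusted p 0.0235) and Gstk1 (-0.80, adjusted p 0.0179) added. The phase II median of -0.042 was 0.10 with the processed signals, deposited ratio and value table, 0.034 with no filter, and -0.062 to 0.078 without 1 array. Median centring moved the median of all names to 0.079, and 59.6% of all calls (85.7% of member calls) were then higher, beside 48.9% (75.0%). Over all names, calls without 1 array numbered 561 to 1065, with the trended robust variance 897 and without the block 3482, beside 2110. Directions of genes near 0 reversed: with median centring Cyp2g1 (-0.098), Gstp1 (0.14), Sult1b1 (-0.18) and Ugt2a1 (-0.22); and over the fits with 1 array left out, Cyp2g1 (-0.086 to 0.15, negative without replicate 4), Ephx2 (-0.39 to 0.26, positive without replicate 2 or, at 0.11, replicate 3), Gstt1 (-0.24 to 0.70, negative without replicate 1) and Ugt2a1 (-0.011 to 0.18, negative without replicate 3). With the processed signals, deposited ratio and value table, and with the trended robust variance, Bach1, Gclc, Maoa, Pon2, Slc7a11, Dcn, Pdgfrb, Cdh5, Slc1a3 and Tek also missed the threshold, all in their first direction. The cause was not tested. Dim probes, near background, limit Sult1b1, Cyp1a2, Cyp2g1, Ugt2a1, Sult4a1, Cyp2e1 and Fmo2, among others.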

Other observations

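Some enzymes outside the families above were also called. Of 36 tested genes of other detoxifying enzymes, 1 was higher and 3 were lower in mucosa cells, with a median log2 ratio of -0.062. Calls made up 11.1% of the tested list, beside 6.62% of all names. Aldh1a1, which oxidises aldehydes including retinal, was higher at 2.17 ± 0.80 (SD, n = 4, limma adjusted p 0.0183). Maoa, the mitochondrial oxidase of monoamines, was lower at -2.20 ± 1.06 (adjusted p 0.0320), with -0.64 on replicate 1, -2.68 on replicate 2, -2.49 on replicate 4 and the most negative ratio on replicate 3. Aox1, an aldehyde oxidase, was lower by nearly the same amount on each array, at -1.35, -1.16, -1.26 and -1.34 (adjusted p 0.0172), and Pon2, a lactonase, was lower at -1.13 ± 0.46 (adjusted p 0.0487). Mgst1, a membrane-bound glutathione transferase outside the name rule, had -1.27 ± 0.84 (adjusted p 0.0872). Aldh1a1 missed the threshold without replicate 1, 2 or 4 (adjusted p up to 0.0763), Maoa without replicate 2, 3 or 4 (up to 0.120) and Aox1 and Pon2 without any one array (up to 0.0818 and 0.151). In the 12 other settings Aldh1a1 was called in 12, Aox1 in 11, Maoa in 8 (adjusted p up to 0.0718) and Pon2 in 4 (up to 0.126).

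Of 24 tested transporter genes, 2 were higher and 1 was lower, with a median of 0.082. That is 12.5% called, beside 6.62% of all names. A pair of pumps of the ABCB group moved in opposite directions. Abcb1b, a drug efflux pump, was higher at 0.97, 2.05, 2.32 and 1.85 (mean 1.80 ± 0.59, limma adjusted p 0.0185), and Abcb4, a phospholipid exporter, was lower at -1.63, -1.48, -0.96 and -1.47 (mean -1.39 ± 0.29, adjusted p 0.0186). Slco1a4, an uptake carrier of organic anions, was higher at 1.27 ± 0.41 (adjusted p 0.0316). Abcb1b was called without replicate 1, and Abcb4 without replicate 3, but neither without any other single array (adjusted p up to 0.0847 and 0.0918). Slco1a4 missed the threshold without any one array (adjusted p up to 0.117) and was called in 10 of 12 other settings.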
